A study of Mus musculus with 30 samples.

Results

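The proteasome is the protease that degrades proteins tagged with ubiquitin, and the genes of its subunits, whose symbols begin with Psm, were examined in hypothalamic RNA of mice that carry human versions of the clock gene Per3. Members were all probes, control spots left out, whose gene name on the array starts with Psma, Psmb, Psmc, Psmd, Psme, Psmf or Psmg. This rule took 76 of the 41174 probes, which stand for 49 of 28146 gene names. Of these probes, 72 were detected well enough to be tested, and they covered all 49 genes. The whole array had 30263 tested probes. The rule also takes Psmc3ip, a meiotic recombination factor that is no proteasome subunit, and its 2 probes are kept apart.

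Each of 30 one-colour arrays held the hypothalamus of 1 adult male mouse on the C57BL/6 background, and the brains were taken in the light phase of cycle 17 of a schedule of 3.5 h light and 3.5 h dark. The labels name the genotypes Boxhill (7 arrays), Coach (8 arrays) and Wildtype (15 arrays). Per the study's methods, the knock-in mice are homozygous for an allele in which a mouse Per3 exon is replaced by its human counterpart with 5 or 4 copies of a coding repeat. Boxhill was taken as the 5-repeat line (Per3 5/5) and Coach as the 4-repeat line (Per3 4/4) because the methods say that 1 array of a Per3 5/5 mouse and 1 of a wild-type mouse were left out, and the labels name 7 Boxhill arrays. All 3 lines came from conditional transgenic mice crossed with mice expressing Cre in all tissues, and the mice used did not express Cre themselves. The knock-in is carried by every cell of these mice.

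By scanner, scan date and file layout the arrays form 2 runs, of 14 and 16 arrays. Boxhill shared its run with Wildtype R1 to R7, and Coach shared its run with Wildtype R8 to R15, so each knock-in was compared with the Wildtype arrays of its own run. Every one of the 8 slides held both genotypes of its run. A level below is the log2 intensity of a probe minus that of the array's 75th percentile, so that 0 is the 75th percentile, and a difference of 1 is a factor of 2. Before that scaling the 75th percentile of intensity ranged from 752 to 1546 in run 1 and from 347 to 1370 in run 2. Of the 11 probes for markers of hypothalamic neurons, 10 were above background on all 30 arrays. The probe for Sim1 was above background on all 14 arrays of run 1 and on none of run 2, and levels were not tested between runs. Nothing in the labels says that mice came from separate litters, so p-values measure the spread between these mice only.

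The proteolytic core of the proteasome, the 20S particle, is a barrel of alpha rings outside and beta rings inside, and the beta subunits Psmb5, Psmb6 and Psmb7 carry its active sites. The 19S regulatory particle caps the barrel: its non-ATPase subunits recognize ubiquitin chains and remove them, and its ring of ATPases unfolds the substrate and threads it into the core. In cells exposed to interferon the catalytic subunits are replaced by Psmb8, Psmb9 and Psmb10, which form the immunoproteasome, and dedicated chaperones of the Psmg family and Psmd5, Psmd9 and Psmd10 help to assemble both particles. In neurons the proteasome takes part in protein turnover at synapses, and clock proteins of the PER family are among its substrates.

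Constitutive and inducible catalytic subunits are paralogs, so the sequences of their probes are shown first, because the reading of each pair depends on how far the probes differ. The probe of Psmb5, the chymotrypsin-like subunit, lies at chr14:55233161-55233220 on the minus strand of mm9, and one probe of its inducible partner Psmb8 lies at chr17:34337771-34337830 on the plus strand. In the best ungapped alignment these 60-base probes overlapped by 50 bases, of which 31 were identical (62%). The bases that are identical in the alignment are in capitals, read 5′ to 3′:
Psmb5 A_51_P269728: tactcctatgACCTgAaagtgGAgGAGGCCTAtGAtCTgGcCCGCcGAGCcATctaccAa
Psmb8 A_51_P345367: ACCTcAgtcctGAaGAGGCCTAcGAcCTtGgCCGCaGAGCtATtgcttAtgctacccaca
The probe of Psmb6, the caspase-like subunit (chr11:70341014-70341073, plus strand), and that of its partner Psmb9 (chr17:34319174-34319233, minus strand) overlapped by 48 bases with 27 identical (56.25%):
Psmb6 A_52_P199375: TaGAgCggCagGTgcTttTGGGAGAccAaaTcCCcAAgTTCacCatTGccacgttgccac
Psmb9 A_51_P369803: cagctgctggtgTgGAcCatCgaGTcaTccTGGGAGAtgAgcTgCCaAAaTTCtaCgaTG
The probes of Psmb7 and Psmb10 shared 11 of 23 aligned bases. Whether a probe also bound the transcript of its partner was not tested.

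Boxhill was compared with Wildtype R1 to R7, which asks whether the 5-repeat allele goes with a different level of proteasome transcripts in the hypothalamus. No probe of a proteasome gene passed an adjusted p of 0.05 in limma, and the smallest adjusted p among the members was 0.777. Over the whole array 0% of tested probes (0 of 30263) passed that limit. At an unadjusted p under 0.05 limma marked 12 of the 72 member probes (16.7%), 11 of them higher and 1 lower in Boxhill, against 6.34% of all tested probes, and 3.39% of all probes were marked and higher. The median log2 difference of the member probes was 0.12 and that of all probes was -0.02. Of the members, 55 of 72 (76.4%) had a fitted difference above 0, against 45.2% of all probes. With array weights, which give less weight to arrays that stand apart, limma marked 6 of 72 members at that limit, against 10.1% of all probes, and the median was 0.05, against 0.01 for all probes.

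By role, most groups had more probes above 0 than below, and the differences between role groups were not tested. All 8 probes of the 20S alpha ring were higher in Boxhill (median 0.21, range 0.08 to 0.40), and so were 7 of 8 probes of the constitutive beta ring (median 0.10), 9 of 10 of the 19S ATPases (median 0.17), 13 of 18 of the 19S non-ATPase subunits (median 0.12), 8 of 9 of the assembly chaperones (median 0.16) and all 3 of the inhibitor Psmf1 (median 0.13). Of the 8 probes for activators, which bind the core in place of the 19S particle, 5 were higher (median 0.06). Of the 6 probes for inducible or tissue-restricted core subunits 1, that of Psmb10, was higher (median -0.09). None of these probes passed the adjusted limit. The ribosomal protein genes, another large complex, had a median of -0.06 with 41 of 128 probes higher, and the respiratory chain subunits a median of 0.04 with 51 of 77 higher. At an unadjusted limma p under 0.05 were 10 of the 77 respiratory chain probes (13.0%), 9 of them higher and 1 lower in Boxhill. Of the ribosomal probes 2 of 128 (1.56%) were marked at that limit, both higher. The excess of marked probes over the whole array was thus not particular to the proteasome genes.

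**Figure D1:**
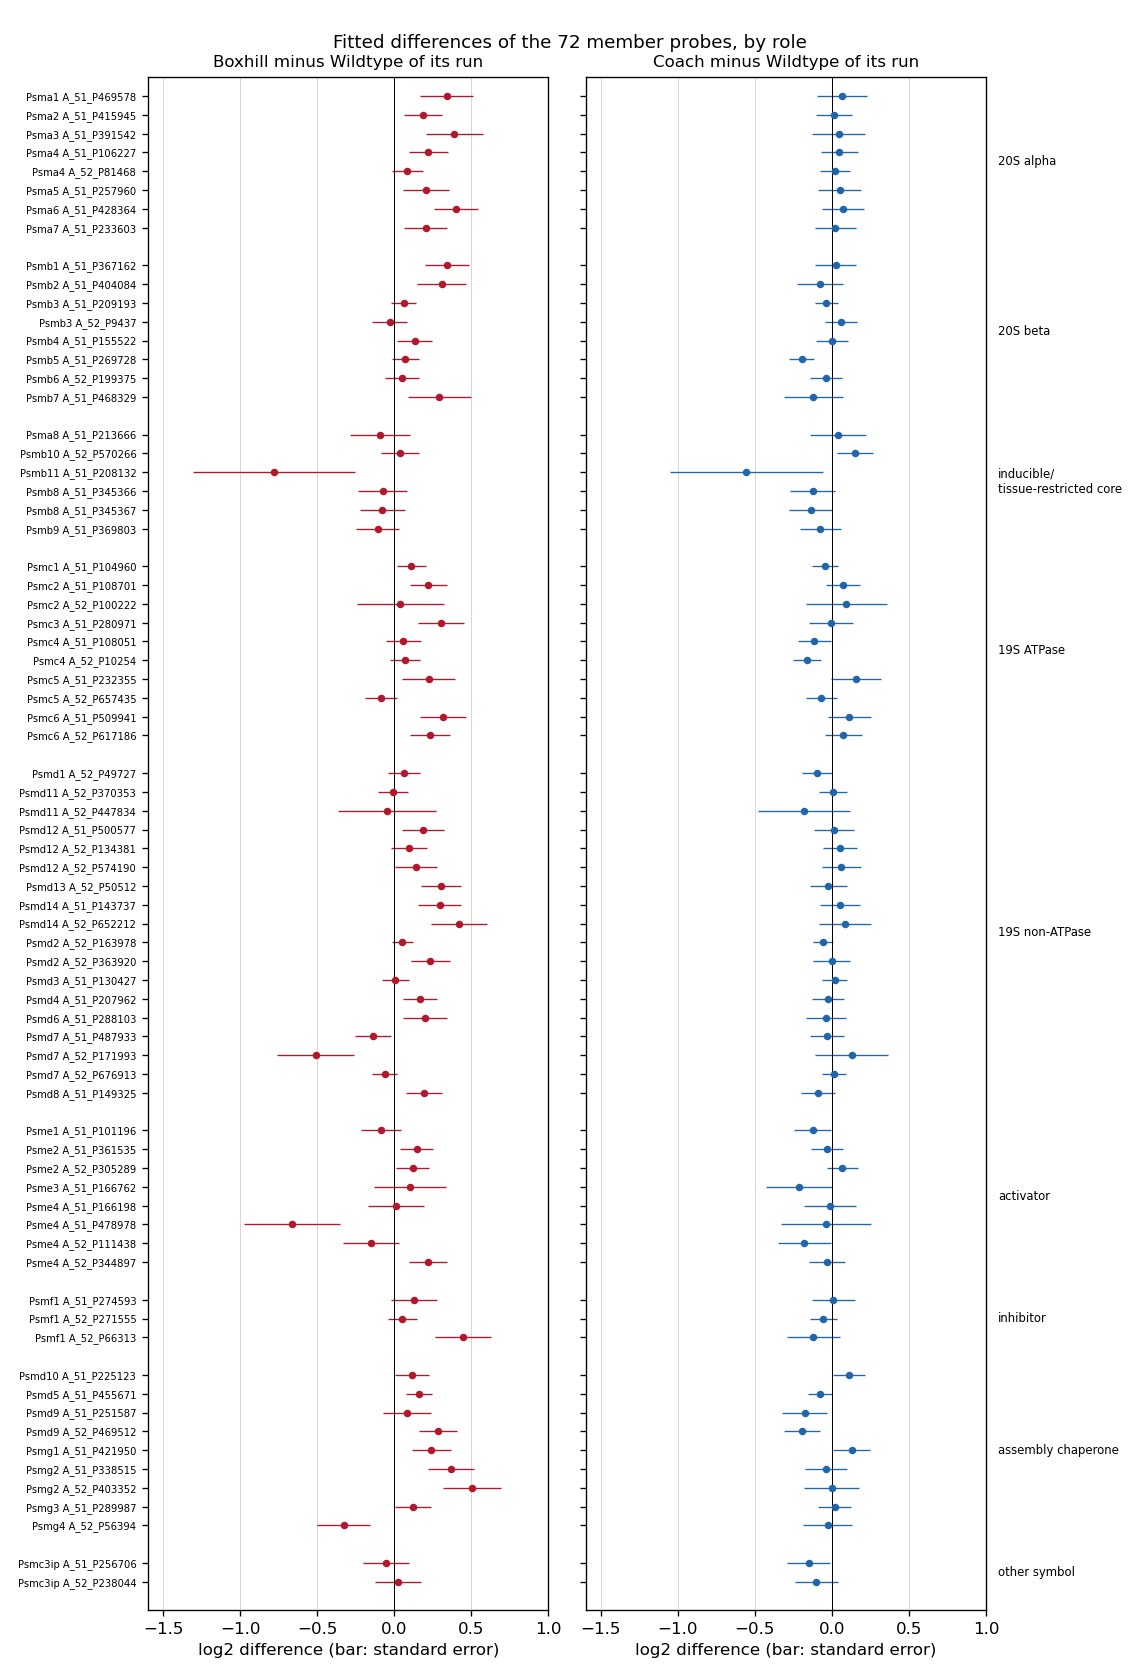
Fitted log2 differences (x axis, points, with standard errors as bars) of the 72 tested member probes, grouped by role down the y axis, for Boxhill and for Coach, each minus the Wildtype arrays of its run. In the Boxhill panel 55 probes lie to the right of 0 and the 20S alpha probes all do, and in the Coach panel 31 lie to the right.

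The 20S alpha ring, which forms the gate of the core, had the member with the smallest p. On the Psma6 probe (chr12:56511127-56511186, plus strand, mm9) Boxhill ranged from 2.77 to 3.80 (median 2.80) and Wildtype from 2.54 to 2.93 (median 2.69). Boxhill R3, R6 and R5 were highest, at 3.80, 3.47 and 3.36, and the other 4 Boxhill arrays, at 2.77 to 2.80, lay within the Wildtype range, so the groups overlapped. The difference was 0.40 (SE 0.145, unadjusted limma p 0.00977, adjusted p 0.777). Psma3, another alpha subunit, ranged from 1.37 to 2.87 (median 1.49) in Boxhill and from 1.38 to 1.71 (median 1.48) in Wildtype. Again Boxhill R3 (2.87), R6 (2.46) and R5 (2.12) were above every Wildtype array and the rest were not, although the group medians were nearly equal. The fitted difference of Psma3 was 0.39 (SE 0.185, unadjusted p 0.0442). The probes of Psma1, Psma2, Psma4, Psma5 and Psma7 were higher by 0.08 to 0.34, with no p under 0.05.

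In the constitutive beta ring, the structural subunit Psmb1 ranged from 2.96 to 4.24 (median 3.23) in Boxhill and from 3.06 to 3.32 (median 3.08) in Wildtype. The arrays Boxhill R3 (4.24), R6 (3.96) and R5 (3.71) were high and the lowest Boxhill array lay below all Wildtype arrays. The difference was 0.34 (SE 0.143, unadjusted p 0.0248, adjusted p 0.777). Among the active-site subunits, the trypsin-like Psmb7 ranged from 2.29 to 3.23 (median 2.37) in Boxhill and from 2.11 to 2.65 (median 2.28) in Wildtype, a difference of 0.29 (SE 0.206, unadjusted p 0.167). Psmb5 and Psmb6, whose probes are printed above, differed by 0.07 (SE 0.0886) and 0.05 (SE 0.110). The ranges of both overlapped with Wildtype: Psmb5 spanned 3.49 to 4.06 in Boxhill and 3.55 to 3.94 in Wildtype, and Psmb6 spanned 4.45 to 4.67 and 4.32 to 4.62.

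The differences of the inducible subunits were smaller than their standard errors, and whether they differ from those of the constitutive subunits was not tested. The Psmb8 probes both differed by -0.08 (SE 0.157 and 0.147, unadjusted p 0.627 and 0.602), the Psmb9 probe by -0.11 (SE 0.141, p 0.449) and the Psmb10 probe by 0.04 (SE 0.125, p 0.776). The median of Psmb9 was -1.54 in Boxhill and -1.50 in Wildtype, and Psmb10 spanned 4.87 to 5.26 and 4.68 to 5.18, so that both groups overlapped on each probe. Among 12 interferon-induced genes, which move with these subunits in inflammation, 10 of 21 probes were higher in Boxhill, with a median difference of -0.02. Of these 21 probes 1, that of the peptide transporter Tap1, had an unadjusted p under 0.05. It was higher in Boxhill by 0.56 (unadjusted limma p 0.0213). This Tap1 probe was above background on only 3 Boxhill arrays and 1 Wildtype array of the run. Its difference is therefore made mostly of values not well above background. Psma8, an alpha subunit of the testis, differed by -0.10, and Psmb11, the thymic beta subunit, by -0.78 (SE 0.528, unadjusted p 0.15), on a probe with an SD of 0.88 in Boxhill and 0.67 in Wildtype.

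**Figure D2:**
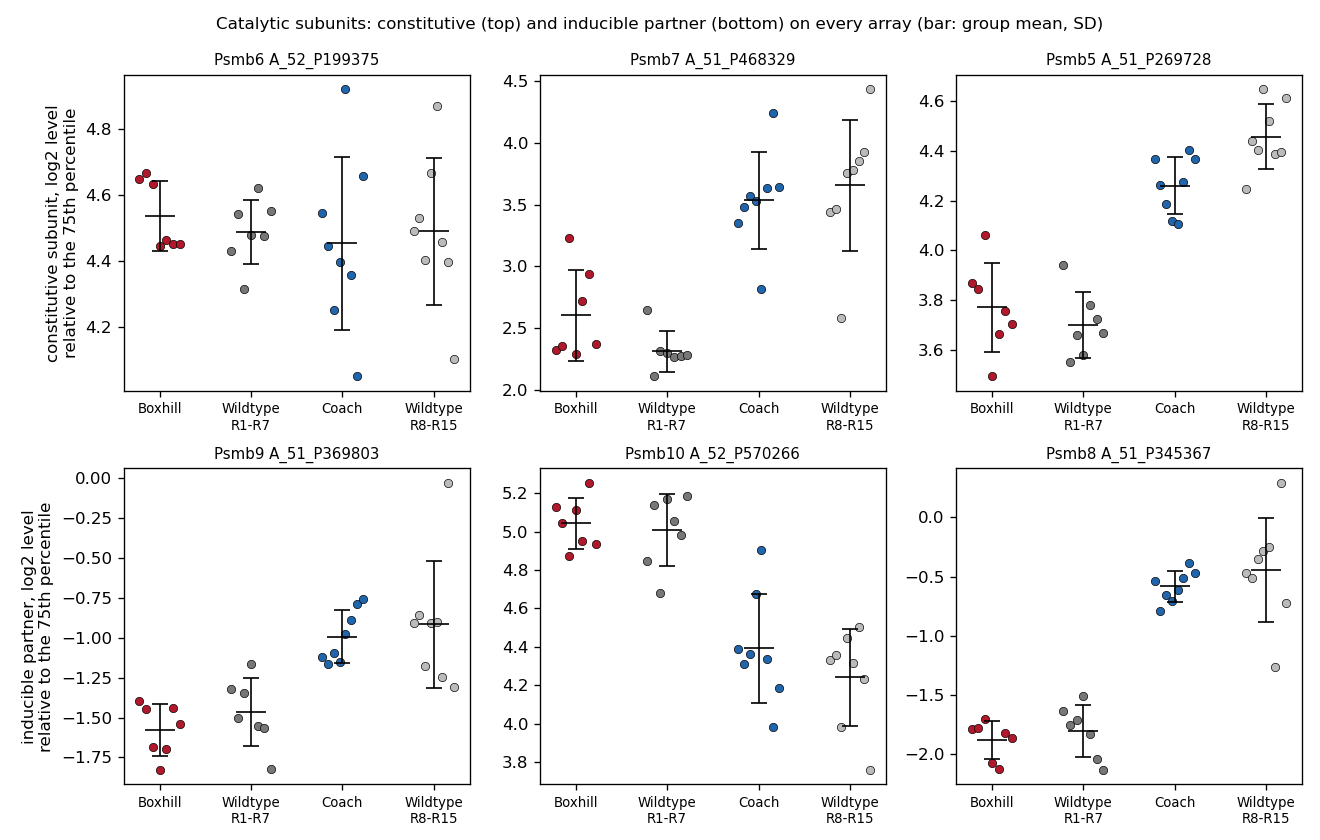
Log2 levels relative to the array's 75th percentile (y axis) on every array, by group, of the constitutive catalytic subunits (upper row) and their inducible partners (lower row), with bars for the group mean and SD. The groups of a run overlap in every panel, and the Coach points of Psmb5 reach from 4.10 to 4.40 against 4.25 to 4.65 in Wildtype.

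In the 19S particle, Psmd14, the enzyme that cuts ubiquitin chains off the substrate, had 2 probes at an unadjusted p under 0.05. On the first (chr2:61599058-61599117, plus strand, mm9) Boxhill ranged from 0.41 to 1.90 (median 0.56) and Wildtype from 0.16 to 0.75 (median 0.48). Boxhill R3 was at 1.90, R6 at 1.33 and R5 at 1.22, above every Wildtype array, and the other 4 lay among them. The difference was 0.42 (SE 0.182, p 0.0281, adjusted p 0.777). On the second Boxhill ranged from 3.08 to 3.80 (median 3.14) and Wildtype from 2.84 to 3.27 (median 3.04), with a difference of 0.29 (SE 0.138, p 0.0421). The structural lid subunit Psmd13 ranged from -0.41 to 0.40 (median -0.24) in Boxhill and from -0.78 to -0.26 (median -0.38) in Wildtype. Its groups overlapped, and its difference was 0.30 (SE 0.129, p 0.0266).

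Psmc6, an ATPase of the base ring, showed another arrangement of arrays. On its first probe Boxhill ranged from 1.68 to 2.31 (median 1.90) and Wildtype from 1.21 to 2.03 (median 1.60), and here R5 was highest while R3, at 1.80, was next to lowest. The difference was 0.32 (SE 0.149, p 0.0414), and the second Psmc6 probe differed by 0.23 (p 0.0855). The 2 probes of the ATPase Psmc4 differed by 0.06 and 0.07. Other 19S members that missed the unadjusted limit closely were the ATPase Psmc3, at 0.30 (p 0.0521), and a probe for Psmd7 built on the cDNA AK158379, at -0.51 (p 0.0508), while the probes of Psmd7 built on its RefSeq transcript differed by -0.14 and -0.06.

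Among the assembly chaperones, Psmg2, which pairs with Psmg1 to build the alpha ring, had the largest positive difference of all members. On one probe Boxhill ranged from -2.13 to -0.40 (median -1.90) and Wildtype from -2.25 to -1.66 (median -2.08), and R3 (-0.40), R6 (-1.02) and R5 (-1.05) stood above Wildtype. The difference was 0.50 (SE 0.19, p 0.0128, adjusted p 0.777). On the other Boxhill ranged from 0.20 to 1.30 (median 0.78) and Wildtype from 0.12 to 0.50 (median 0.22), and here R2, at 0.79, was also above every Wildtype array. The difference was 0.37 (SE 0.148, p 0.0186). One probe of Psmd9, a chaperone of the 19S base, ranged from -0.84 to 0.03 (median -0.64) in Boxhill and from -1.11 to -0.66 (median -0.77) in Wildtype, with overlap and a difference of 0.28 (SE 0.124, p 0.0294). The second Psmd9 probe differed by 0.08 and Psmg1 by 0.24 (p 0.0718). Psmg4, a chaperone of the same stage of assembly, was the chaperone that was lower, at -0.33 (p 0.0613).

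All 3 probes of the inhibitor Psmf1 were higher in Boxhill, 1 of them at an unadjusted p under 0.05, and the activator probes had both signs. A probe for Psmf1, which blocks the core in vitro (chr2:151555353-151555412, minus strand, mm9), ranged from -1.64 to -0.33 (median -1.41) in Boxhill and from -1.93 to -1.48 (median -1.62) in Wildtype. Its difference was 0.45 (SE 0.183, p 0.0212), whereas the other Psmf1 probes differed by 0.05 and 0.13. The single member that was lower at an unadjusted p under 0.05 was a probe for the activator Psme4, which caps the core and takes part in histone turnover, built on the cDNA AK164827 (chr11:30739112-30739171, plus strand, mm9). It ranged from -7.44 to -4.79 (median -5.41) in Boxhill and from -5.45 to -4.73 (median -5.05) in Wildtype, with R3 (-7.44), R6 (-6.67) and R5 (-5.85) below all Wildtype arrays. It was above background on 4 of 7 Boxhill and 7 of 7 Wildtype arrays, and its fitted difference of -0.66 (SE 0.312, p 0.0424) is therefore made in part of values not well above background. The other 3 probes of Psme4 differed by -0.15, 0.01 and 0.22.

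**Figure D3:**
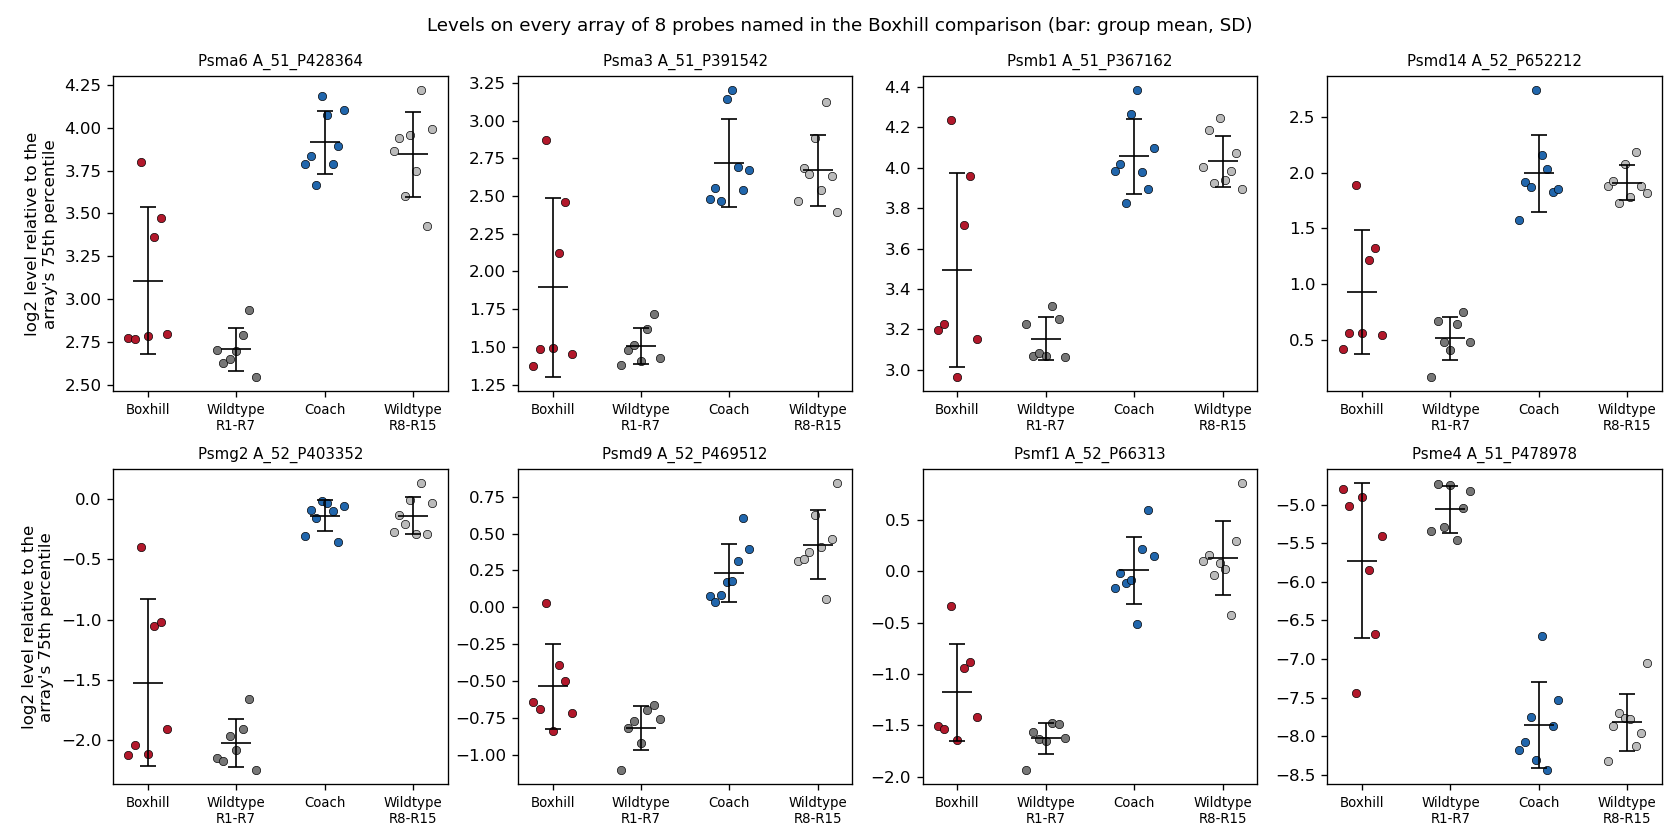
Log2 levels relative to the array's 75th percentile (y axis) of 8 probes named in the Boxhill comparison, 1 point an array, by group, with bars for the group mean and SD. In run 1 the Psma6 points of Boxhill R3 (3.80), R6 (3.47) and R5 (3.36) lie above every Wildtype array, and the Psme4 points of the same arrays lie below every Wildtype array.

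The members' median difference was highest on 3 of the 7 Boxhill arrays. The median difference of the 72 members from the Wildtype mean was 0.30 on Boxhill R3, 0.22 on R6 and 0.13 on R5, and from -0.02 to 0.05 on the other 4. Single Wildtype arrays of the run ranged from -0.07 to 0.08. The Wildtype mean includes each of these arrays, which narrows the Wildtype ranges of such differences, here and below, relative to those of knock-in arrays. For the 20S alpha probes the medians were 0.68, 0.46 and 0.34 on these 3 arrays and from 0.03 to 0.06 on the other 4. Some members were arranged otherwise, and 2 are given here that were chosen after their values were seen. On the probe of the alpha subunit Psma7, 6 of 7 Boxhill arrays (4.94 to 5.04) lay above every Wildtype array (4.57 to 4.87), and R7 was at 4.86. On that of the beta subunit Psmb4, Boxhill R1 (5.93), R2 (5.92), R3 (5.89), R4 (5.91) and R6 (5.97) lay above every Wildtype array (highest 5.87), and R5 (5.79) and R7 (5.78) did not. No member probe had Boxhill and Wildtype groups that did not overlap, against 0.172% of all probes. The members' median difference was above 0 within each slide of the run, at 0.08, 0.28, 0.11 and 0.13, and the slide with 0.28 held R3 as its only Boxhill array. The slide with 0.11 held R5 beside R4, and that with 0.13 held R6 beside R7. Only the slide with 0.08, which had 1 Wildtype array, held none of R3, R5 and R6, so the slides do not repeat the result apart from these arrays. With the slide as a fixed block the median was 0.13 and limma marked 25 of 72 members at an unadjusted p under 0.05, against 13.5% of all probes, and none after adjustment.

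Measures of the whole array on these 3 arrays were as follows. The interquartile range of all probes' differences from the Wildtype mean was 0.693 on R3, 0.528 on R6 and 0.50 on R5, against 0.225 to 0.303 on the other Boxhill arrays and 0.206 to 0.512 on Wildtype R1 to R7. The intensity at the 75th percentile was 1546, 1260 and 988 on R3, R6 and R5 and 752 to 941 on the other Boxhill arrays, against 907 to 1091 on Wildtype R1 to R7. On both measures R5 lay within the Wildtype range. Median differences of the 12 astrocyte marker probes were -0.52, -0.52 and -0.27 on R3, R6 and R5, from -0.04 to 0.11 on the other Boxhill arrays and from -0.29 to 0.19 on Wildtype R1 to R7. Those of the 11 hypothalamic neuron probes were 0.23, 1.01 and 0.54, against -0.07 to 0.14 and -0.30 to 0.40. The value of R5 for astrocytes and that of R3 for neurons thus lay within the Wildtype range. Those of the 13 oligodendrocyte probes were -0.20, -0.56 and -0.11, against -0.08 to 0.09 and -0.16 to 0.13, and those of the 6 endothelial probes were -0.55, -0.47 and -0.37, against -0.37 to 0.34 and -0.50 to 0.47. Microglia, choroid plexus and pituitary probes did not move in a single direction on these arrays. Medians of the 11 microglia probes were 0.59, -0.21 and -0.27, against -0.13 to 0.39 and -0.73 to 0.23. For the 7 choroid plexus probes they were 0.22, -1.12 and -1.47, against -1.42 to 0.12 and -0.27 to 0.70. For the 7 pituitary probes they were -0.34, 1.67 and 0.04, against -0.60 to 0.01 and -0.31 to 0.50. Over the groups, all 12 astrocyte probes were lower in Boxhill (median -0.22, summed level 6.52 to 7.10 against 6.79 to 7.16 in Wildtype), none at an unadjusted p under 0.05, and 9 of 11 neuron probes were higher (summed level 6.66 to 7.82 against 6.56 to 7.39). Of the oligodendrocyte probes 10 of 13 were lower (median -0.14, summed level 8.37 to 8.98 against 8.68 to 9.17), and of the endothelial probes 5 of 6 (median -0.16, summed level 3.03 to 3.96 against 3.16 to 4.11), none of either list at that limit. The astrocyte and neuron probes were detected on every array of the run. The part of these marker lists in the result was not tested, and in such whole tissue fewer cells of a type and less RNA per cell cannot be told apart.

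The counts were also made without these arrays, a choice made after their values were seen. Without Boxhill R3 and R6, 1 of 72 members had an unadjusted p under 0.05 (Psmc6, 0.35 higher, p 0.044), against 1.51% of all probes, the median was 0.05 and 51 members were higher. Without R3, R5 and R6, none had a limma p under 0.05, against 0.915% of all probes, the median was 0.02, equal to that of all probes within rounding, and 44 of 72 were higher. Without those 3 arrays the differences of Psma3 (-0.05), Psmb1 (-0.02), the Psmg2 probe above (-0.02) and Psme4 (0.03) had the opposite sign.

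**Figure D4:**
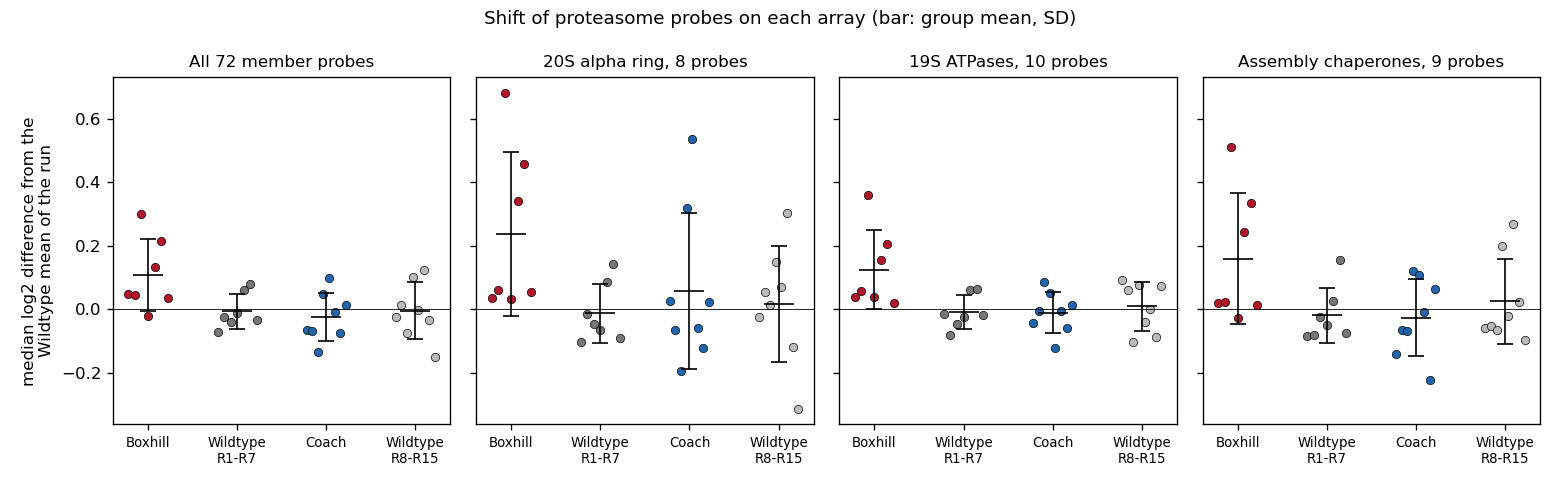
Median log2 difference from the Wildtype mean of the run (y axis) on each of the 30 arrays, by group, with bars for the group mean and SD. In the panel of all members Boxhill R3 (0.30), R6 (0.22) and R5 (0.13) are the highest of run 1.

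Coach was compared with Wildtype R8 to R15, which asks the same of the 4-repeat allele. No member passed an adjusted p of 0.05 in limma (smallest adjusted p 1.00 after rounding), against 0.0132% of all probes (4 of 30263). At an unadjusted p under 0.05 there was 1 member of 72 (1.39%), which was lower, against 1.74% of all probes, and 0.988% of all probes were marked and higher. The median difference of the members was -0.02 and that of all probes 0.01. Of the members 31 of 72 (43.1%) were higher, against 51.7% of all probes. With array weights the median was -0.07, against -0.01 for all probes, 12 of 72 were higher and 8 had an unadjusted p under 0.05, against 5.39% of all probes. No member had groups without overlap, against 0.0132% of all probes. The rank product, the test that the study's methods add, marked 0 members in either comparison. Among all 30263 tested probes it marked 359 for Boxhill (1.19%), 50 of them higher and 309 lower, and 44 for Coach (0.145%), 30 higher and 14 lower.

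The member with the smallest p in Coach was Psmb5, the chymotrypsin-like active-site subunit. It ranged from 4.10 to 4.40 (median 4.27) in Coach and from 4.25 to 4.65 (median 4.42) in Wildtype. Coach R5 (4.10), R4 (4.12) and R3 (4.19) lay below all Wildtype arrays and the groups overlapped in the rest. The difference was -0.20 (SE 0.0829, unadjusted p 0.0247). The other active-site subunits differed by -0.04 (Psmb6, SE 0.103) and -0.12 (Psmb7, SE 0.193), their inducible partners by -0.13 and -0.14 (Psmb8), -0.08 (Psmb9) and 0.15 (Psmb10, p 0.204). Among the interferon-induced genes none of 21 probes had an unadjusted p under 0.05 (median -0.03).

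None of the other 11 probes with the smallest p values reached an unadjusted 0.05. Psmc4, an ATPase of the 19S base, was lower on both of its probes, by 0.16 (p 0.0831; Coach 3.49 to 4.13, median 3.74, Wildtype 3.73 to 4.23, median 3.90) and by 0.11 (p 0.301). The 2 probes of the chaperone Psmd9 differed by -0.19 (p 0.106; Coach 0.04 to 0.61, median 0.18, Wildtype 0.06 to 0.84, median 0.39) and -0.18 (p 0.233). The chaperones Psmg1 and Psmd10 differed by 0.13 (p 0.296) and 0.11 (p 0.298). Psme1, a subunit of the interferon-inducible activator, differed by -0.12 (p 0.306), a probe of Psme4 by -0.18 (p 0.303) and a probe of Psmc3ip by -0.15 (p 0.291). The thymic Psmb11 differed by -0.56 (p 0.27) on a probe above background on 5 of 8 Coach and 6 of 8 Wildtype arrays, and without Wildtype R10, which was at -1.06 against -5.92 to -5.13 on the others, its difference was 0.01. The members with high p in Boxhill and Coach alike included Psmd3, a scaffold subunit of the lid, at 0.01 (SE 0.0865) and 0.02 (SE 0.0809).

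By role, the medians in Coach were 0.05 for the 20S alpha ring, -0.04 for the constitutive beta ring, -0.10 for the inducible or tissue-restricted subunits, 0.03 for the 19S ATPases, 0.00 for the 19S non-ATPase subunits, -0.03 for the activators, -0.06 for Psmf1 and -0.03 for the chaperones. All 8 alpha probes were above 0, by 0.01 to 0.07, and none had an unadjusted p under 0.05. The members' medians on single arrays ranged from -0.13 to 0.10 in Coach and from -0.15 to 0.12 in Wildtype R8 to R15. Coach R5, with the highest alpha median (0.54), had a 75th percentile intensity of 347, the lowest of the series, and an interquartile range of 0.853 over all probes. Within slides the members' median was -0.07, -0.04, 0.02 and 0.04. Markers of the choroid plexus were higher in Coach (median 0.69, 6 of 7 probes, 3 at an unadjusted p under 0.05; summed level 1.94 to 4.39 against 1.30 to 4.22 in Wildtype) and lower in Boxhill (median -0.74, 6 of 7 probes, none at that limit). Wildtype arrays of run 2 also differed widely among themselves. The neuron probes had a median difference of -2.83 on Wildtype R10 (summed level 5.30 to 8.26 in Wildtype, 7.27 to 8.46 in Coach). Medians of the pituitary probes were 6.41 on Wildtype R14, -3.99 on R12 and -2.50 on R10, against -0.37 to 0.96 on Coach arrays. The part of these markers in the members' values was not tested.

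How far the knock-in lines differ from each other (Boxhill minus its Wildtype, less Coach minus its Wildtype) was tested in the same limma fit. No member passed an adjusted p of 0.05, against 0% of all probes. At an unadjusted p under 0.05 there were 3 members of 72 (4.17%), all higher in Boxhill, against 3.04% of all probes, and 1.32% of all probes were marked and higher. They were a probe of Psmd9 (0.48, SE 0.17, p 0.00869), a probe of Psmf1 (0.57, SE 0.251, p 0.0316) and the probe of Psmb5 (0.27, SE 0.121, p 0.0362). For this Psmd9 probe the effects were 0.28 in Boxhill and -0.19 in Coach, and for this Psmf1 probe 0.45 and -0.12. The second Psmd9 probe had effects of 0.08 and -0.18. The other Psmf1 probes had differences between the lines of 0.11 and 0.12. The median over members was 0.14, against -0.02 for all probes, and 58 of 72 were above 0 (80.6%), against 46.5% of all probes. The Boxhill side of this contrast includes R3, R5 and R6. Without these arrays the members' median against Wildtype was 0.02, equal to that of all probes within rounding. Each line was measured in its own run, so line and run cannot be told apart beyond what the Wildtype arrays take out. Of the respiratory chain probes 9 of 77 (11.7%) had an unadjusted p under 0.05 in this contrast, 7 of them higher in Boxhill. Their median was 0.06, and 51 of 77 were above 0 (66.2%).

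For 18 member genes more than 1 probe was tested, 41 probes in all. All probes of a gene had the same sign in 14 genes for Boxhill and in 12 for Coach, and the median spread between the probes of a gene was 0.13 and 0.05. In Boxhill the widest spreads were those of Psme4 (0.88), Psmd7 (0.45), Psmf1 (0.39) and the ATPase Psmc5 (0.31, with probes at 0.22 and -0.09). The Psme4 and Psmd7 probes at the far ends are those built on cDNAs rather than on the RefSeq transcript. The 2 tested probes of Psmd11, a lid subunit, lie on opposite strands of chromosome 11. Of the 4 member probes that were not tested, 1 each for Psma2, Psmb11, Psmd11 and Psmd14, the Psma2 probe was above background on no array.

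**Figure D5:**
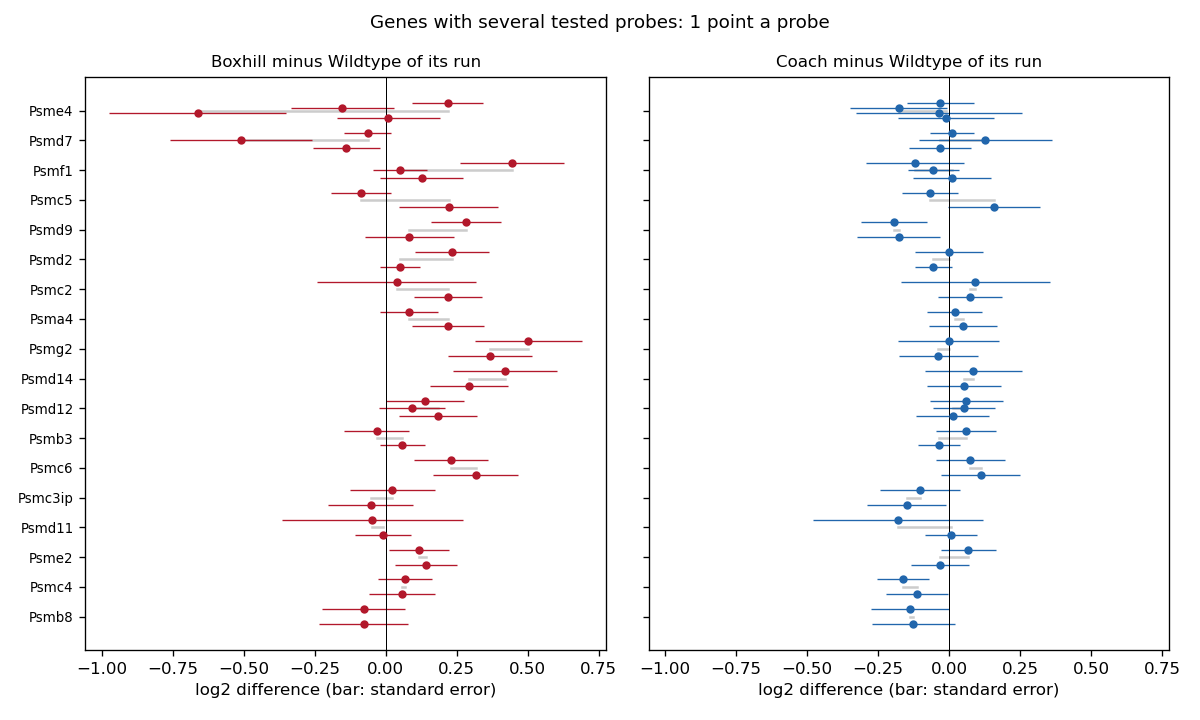
Fitted log2 differences (x axis, with standard errors as bars) of every tested probe of the 18 member genes with several probes, 1 point a probe and 1 row a gene, for Boxhill and Coach against the Wildtype arrays of the run. The probes of Psme4 reach from -0.66 to 0.22 in Boxhill, the widest row.

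With the group means removed, the members varied together across the 30 arrays. Arrays of a run share a scanner but differ in intensity. The mean correlation between pairs of member probes was 0.103, against 0.0196 for all tested probes, 0.353 for ribosomal protein genes and 0.225 for respiratory chain genes. In run 1 it was 0.165 and in run 2 0.0601. Probes that followed the mean of the other member genes most closely were those of the ATPase Psmc2 (r 0.92), Psmb1 (0.89) and Psma3 (0.89), all over 30 arrays. By role the median of this r was 0.74 for the 20S alpha ring, 0.59 for the chaperones, 0.50 for the constitutive beta ring, 0.41 for the 19S non-ATPase subunits, 0.12 for the ATPases and -0.01 for the inducible subunits. The lowest values were those of 2 probes of Psme4, -0.64 and -0.52, while its other probes had 0.14 and 0.34. The probe with -0.52 is the one built on the cDNA AK164827. In run 2 its levels were -8.44 to -6.70, as low as those of the Psma2 probe that was above background on no array. Ribosomal probes did not share the array pattern of Boxhill R3, R5 and R6, on which their medians were -0.16, -0.13 and 0.02.

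Promoter sequences from RefSeq (GRCm38.p6, 250 bases before the start) were found for 41 of 49 genes, with 44 promoters. Motifs were searched on both strands. The palindrome of nuclear respiratory factor 1 was present in 6 of 44 member promoters (13.6%) and in 3.74% of 32851 promoters, and its genes were Psma2, Psma3, Psma4, Psmc4, Psmc5 and Psmd14. The CCAAT box was present in 15 (34.1%), against 33.8%. The core of the antioxidant response element, TGACNNNGC, which the proteasome regulators of the Nfe2l family bind, was present in 5 (11.4%), against 10.2%, and the interferon-stimulated response element in 3 (6.82%), against 2.98%. The counts are small and describe letters only.

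Psma3 and Psmd14, whose probes were high on the same 3 Boxhill arrays, are shown with the CCAAT box and the NRF1 pattern in capitals. Psmb5, the lowest member by p in Coach, is shown with TGACNNNGC in capitals. The Psma3 promoter lies at chr12:70974373-70974622 (plus strand), that of Psmd14 at chr2:61711444-61711693 (plus strand) and that of Psmb5 at chr14:54617996-54618245 (minus strand), all printed 5′ to 3′:
Psma3: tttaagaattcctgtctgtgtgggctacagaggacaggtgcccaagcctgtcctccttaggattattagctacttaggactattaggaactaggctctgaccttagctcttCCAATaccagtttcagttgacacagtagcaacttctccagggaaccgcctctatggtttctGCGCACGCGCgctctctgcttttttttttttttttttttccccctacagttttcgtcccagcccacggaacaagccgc
Psmd14: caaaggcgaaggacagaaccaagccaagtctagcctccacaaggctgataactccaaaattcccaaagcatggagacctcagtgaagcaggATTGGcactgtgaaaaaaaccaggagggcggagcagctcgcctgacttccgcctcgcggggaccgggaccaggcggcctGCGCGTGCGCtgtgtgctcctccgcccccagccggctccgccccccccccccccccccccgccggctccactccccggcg
Psmb5: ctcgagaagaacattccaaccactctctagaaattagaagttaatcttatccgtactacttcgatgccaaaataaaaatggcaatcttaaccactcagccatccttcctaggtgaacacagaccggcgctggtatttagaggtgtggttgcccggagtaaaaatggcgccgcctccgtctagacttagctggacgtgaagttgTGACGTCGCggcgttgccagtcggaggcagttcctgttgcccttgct
In both Psma3 and Psmd14 the NRF1 pattern lies nearer to the start of transcription than the CCAAT box does, and neither match is an exact palindrome. The pattern was absent from both promoters of Psma6, the member with the smallest p in Boxhill. Promoters of Psmc6, Psmd9, Psmd13 and Psmf1, which also had a probe marked higher in Boxhill, lacked it as well. The carriers Psma2, Psma4, Psmc4 and Psmc5 had no probe at an unadjusted limma p under 0.05 in Boxhill. Whether the NRF1 pattern goes with the differences was not tested.

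Of a list of 30 other genes of the pathway, such as the ubiquitin genes, the unfoldase Vcp, shuttle factors and the transcription factors of proteasome genes, 27 were on the array with 51 tested probes. In Boxhill 24 of 51 were higher (median -0.02) and 2 had an unadjusted limma p under 0.05 (3.92%, against 6.34% of all probes). A probe for Ufd1l, a cofactor of Vcp, was higher, and the other Ufd1l probe differed by 0.03. A probe for Ddi2, a protease that activates a transcription factor of proteasome genes, was lower, and other Ddi2 probes differed by -0.25 and -0.19. In Coach 28 of 51 were higher (median 0.01) and none had an unadjusted p under 0.05, against 1.74% of all probes. No probe of this list had an unadjusted p under 0.01 in either comparison, and none passed the adjusted limit in limma.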

How the data were processed

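The authors deposited the output of the scanner software (Feature Extraction 10.7.1.1) for each of 30 one-colour arrays, of which the background-subtracted intensity of each spot, not normalized between arrays, was used here, and a table of log2 values shifted to the 75th percentile, which proved to be centred on each probe within each run. Control spots were left out, as were the 36 to 117 spots of an array that the software marked as outliers. Log2 intensities were then set relative to the 75th percentile of their array, and repeated spots averaged by probe. A probe entered the tests once 50% or more of the arrays of any of the 4 groups (genotype within run) gave it a signal that the software marked as well above background. Differences were fitted with limma 3.58.1 (R 4.3.3) over all 30 arrays with the 4 groups as terms and Benjamini-Hochberg adjustment over 30263 probes. The methods' t-test and rank product (100 permutations, limit 0.015) were run within the run. Other calculations used Python 3.11.15. The fit was tested on simulated data. The number of arrays limits the precision. Named probes were the 12 with the smallest p in each comparison, the catalytic subunits and their inducible partners, and all tested probes of those genes; probes outside this rule were chosen after their values were seen. Members and lists were chosen with earlier results of these data known. Probe positions are those of the array files (mm9), and replicate numbers those of the scanner files; for the deposited log2 values, 1 of 14 columns of run 1 matched the array of its own number, all 14 matched an array of their genotype, and all 16 of run 2 matched their own.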

Additional observations from a re-analysis of the deposited data

Results flagged for a closer look

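In 140 groups of arrays tested for a single array far from the rest (34 probes), 9 such arrays were found, and chance marks about 1 in 20 groups. Of the 9, 8 were Wildtype arrays. In run 1, Wildtype R1 was high for Psmb7, the trypsin-like subunit (2.65, others 2.11 to 2.32), and low for Psmd13 (-0.78, others -0.43 to -0.26) and a probe of Psmf1 (-1.93, others -1.65 to -1.48), the latter 2 being among the probes named for Boxhill. In run 2, Wildtype R15 was high on both probes of the ATPase Psmc4 (2.99, others 2.10 to 2.47; and 4.23, others 3.73 to 3.93). Wildtype R10 was high for the thymic subunit Psmb11 (-1.06, others -5.92 to -5.13) and for a probe of Psmc3ip (-1.49, others -2.85 to -2.35), and Wildtype R14 for the inducible subunit Psmb9 (-0.03, others -1.31 to -0.86). Coach R7 was low for a probe of the chaperone Psmg2 (1.04, others 1.38 to 1.67). Their part in the differences was not tested beyond leaving each array out.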

How the results depend on the processing

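The number of member probes past an adjusted p of 0.05 was 0 in both comparisons and in their difference under every alternative run, the rank product and the methods' t-test included. The members' median difference kept its sign for Boxhill under every alternative (0.02 to 0.14) and was above 0 for Coach only without Coach R7, Wildtype R11 or Wildtype R13. With each array left out in turn it ranged from 0.09 to 0.13 for Boxhill and from -0.04 to 0.01 for Coach. The count at an unadjusted p under 0.05 moved more. For Boxhill (12 of 72) it was 7 of 49 with 1 probe per gene (6.16% of all probes), 6 with array weights (10.1% of all probes, so the members' share was not above that of all probes), 25 with the slide as a fixed (13.5%) and 25 as a random block (11.1%), 19 without Coach replicate 5 and Wildtype replicate 15, which changes only the shared spread, 1 without Boxhill replicates 3 and 6 (1.51%), and 0 without Boxhill replicates 3, 5 and 6 (0.915%). With single arrays left out it ranged from 2 (without Boxhill R3) to 21 (without Boxhill R4), and was 4 without Boxhill R5, 7 without Wildtype R4 and 19 without Boxhill R1. For Coach (1 of 72) it was 8 with array weights (5.39% of all probes) and 0 with normexp (0.80%). It was 2 with the slide as a fixed block (2.86%) and 2 as a random block (2.97%). Without Coach replicate 5 and Wildtype replicate 15 it was 0. With single arrays left out it ranged from 0 (without Wildtype R11) to 4 (without Coach R7), with 3 without Wildtype R13. Shares over all probes are not given for the counts with single arrays left out, or without Coach replicate 5 and Wildtype replicate 15. Those counts, of either comparison, were not set against the whole array. The count of members without overlap was 1 with quantile normalization and from 0 to 1 with single arrays left out. With the replicate number as a block, Boxhill had 16 members at an unadjusted p under 0.05, against 11.5% of all probes, and none after adjustment. Same-numbered arrays did not deviate together (r from -0.29 to 0.39 over 7 pairs, 2 of them over 0.1, 2 arrays best with their own number), and Coach shares 1 number with its Wildtype arrays, so no such fit was made there. The cause of these moves was not tested.

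Single probes changed sign as follows. Without Boxhill replicates 3, 5 and 6 the differences in Boxhill were -0.054 for Psma3, -0.020 for Psmb1, -0.021 for Psmg2 and 0.034 for Psme4. Psmb10 in Boxhill was -0.014 with array weights and, with single arrays left out, -0.018 to 0.065. In Coach, array weights gave 0.030 for Psmb11, -0.038 for Psmd10, 0.082 for Psme4 and -0.052 for Psmg1. With 1 array, or Coach replicate 5 and Wildtype replicate 15 together, left out, Psmb11 ranged from -0.71 to 0.012, Psmb6 from -0.16 to 0.021, Psmb7 from -0.27 to 0.093, Psmc4 from -0.18 to 0.030, Psmg1 from -0.016 to 0.18, Psmb8 from -0.24 to 0.0056 and Psmb9 from -0.13 to 0.051. The alternatives without 2 or more arrays and the median relative to all probes were chosen after values had been seen. Planned normexp used median spot signals, which both kinds of file hold.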
